A study of Homo sapiens with 6 samples.

Results

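The MYC, MAX and MXD network was followed through 10 of the 21357 genes named in the probe annotation of the array, which places them at 26 of the 54613 probe sets that are not controls. The members were all probe sets whose annotated symbol is, or lists, MYC, MYCL, MYCBP, MAX, MXD1, MXD3, MXD4, MXI1, MNT or MGA. Of the 26 probe sets, 19 carry 1 gene symbol. The other 7 list several: the 4 MYCBP probe sets also list the read-through transcript GJA9-MYCBP, and in part GJA9, while the 3 MXD4 probe sets also list the microRNA gene MIR4800. Values at those 7 may therefore hold RNA of another transcript.

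The cells were MOLM-14, a human cell line established from acute myeloid leukaemia and carrying an MLL-AF9 rearrangement. They received 25 nM cortistatin A (CA), a marine steroidal alkaloid that blocks the kinases CDK8 and CDK19 of Mediator, or only the solvent dimethyl sulfoxide (DMSO), and both groups were harvested after 3 h. There were 3 samples per group with 1 Affymetrix U133 Plus 2.0 array for each, and so few arrays limit the precision. Triplicate wells are named in the labels but not separate cultures, so the spread behind each p-value may be technical.

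Proteins of the MYC family dimerise with MAX through a basic helix-loop-helix leucine zipper, and the dimer binds the E-box CACGTG and raises transcription of genes for growth and metabolism. The MXD proteins, with MXI1, and the larger proteins MNT and MGA also pair with MAX and bind related sites, where they repress: the MXD proteins and MNT bring the SIN3 and histone deacetylase corepressor, and MGA belongs to a Polycomb complex. In acute myeloid leukaemia MYC sustains self-renewal, and MXD1 is known as a gene that rises when myeloid cells differentiate.

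The 6 arrays had median log2 values of 5.03 to 5.08 and pairwise correlations of 0.996 to 0.998. CA replicate 3 stood apart on the first principal component, at 33.8, where the other arrays lay between -12.8 and 6.44, so results are also given without it. All 15 measured genes of a list of MOLM-14 identity, among them FLT3, MEIS1 and LYZ, had a mean above 5.05, the median of all probe sets. The mean log2 value of that list was 8.36 to 8.47 in CA and 8.35 to 8.39 in DMSO. Of 23 measured markers of other blood and stromal cells, 14 lay above that median, as did 12515 of all 19775 genes at their brightest probe set. The mean log2 value of the 23 markers was 5.68 to 5.92 in CA and 5.70 to 5.78 in DMSO, ranges that overlap, with the highest value in CA replicate 3. The part of that marker level in the results below was not tested.

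MYC, MYCL, MXD1 and MNT each had a probe set at which all CA values lay above all DMSO values, with differences of 12.6% to 22.1% and both activator and repressor genes among them. MYCBP, MAX, MXI1, MXD3, MXD4 and MGA had no such probe set. No member probe set passed limma with Benjamini-Hochberg adjustment over all 54613 probe sets (0 of 26 at an adjusted p under 0.05, where 0.22% of all probe sets passed, 0.212% higher and 0.00732% lower). Before adjustment, at p under 0.05, 4 of 26 were higher in CA (4.91% of all probe sets) and 0 of 26 were lower (3.71%). The 3 CA values lay above the 3 DMSO values at 4 of 26 (8.96%) and below them at 0 of 26 (6.55%). In either direction that is 15.4% of the members and 15.5% of all probe sets, so the share of members whose groups did not overlap was at the background. The median log2 change of the member probe sets was 0.03, against -0.0011 over all probe sets.

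**Figure D1:**
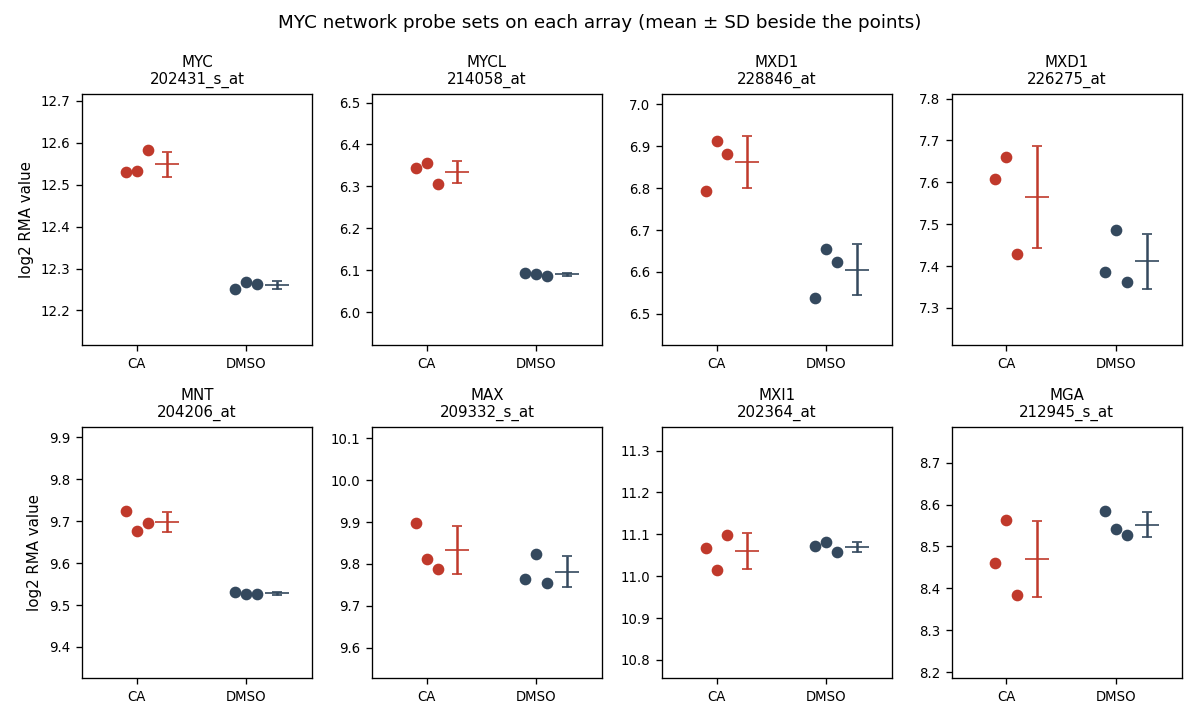
Log2 RMA values (vertical axis, a span of equal length in each panel) on the 3 CA and 3 DMSO arrays at 8 probe sets, 1 point per array, with the mean ± SD beside the points. The CA points of MYC, MYCL, MNT and the MXD1 probe set 228846_at lie above all DMSO points, and in the other 4 panels the groups overlap.

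Promoter sequences are shown for MYCL, MXD1 and MNT, the members other than MYC with such a probe set, and for MXD4, because MNT and MXD4 are the members with a searched window that holds the E-box that the network binds. They come from RefSeq (GRCh38.p14), run 5′ to 3′ on the gene's strand from 250 bases before to 50 bases after the start of the gene, and have the letters CACGTG in capitals:

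MYCL chr1:39901868-39902167 (minus strand): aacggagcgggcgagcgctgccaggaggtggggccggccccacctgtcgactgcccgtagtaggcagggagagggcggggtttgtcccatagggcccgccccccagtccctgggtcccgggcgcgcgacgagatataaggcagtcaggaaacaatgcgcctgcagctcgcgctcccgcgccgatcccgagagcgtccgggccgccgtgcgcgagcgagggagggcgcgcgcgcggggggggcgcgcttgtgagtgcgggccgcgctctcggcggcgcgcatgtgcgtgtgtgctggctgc

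MXD1 chr2:69914859-69915158 (plus strand): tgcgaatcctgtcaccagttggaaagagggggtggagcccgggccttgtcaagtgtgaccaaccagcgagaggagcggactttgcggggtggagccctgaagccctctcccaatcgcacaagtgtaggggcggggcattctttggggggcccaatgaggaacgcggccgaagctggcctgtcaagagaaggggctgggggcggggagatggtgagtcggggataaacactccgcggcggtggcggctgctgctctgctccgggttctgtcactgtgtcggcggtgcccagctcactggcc

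MNT chr17:2401011-2401310 (minus strand): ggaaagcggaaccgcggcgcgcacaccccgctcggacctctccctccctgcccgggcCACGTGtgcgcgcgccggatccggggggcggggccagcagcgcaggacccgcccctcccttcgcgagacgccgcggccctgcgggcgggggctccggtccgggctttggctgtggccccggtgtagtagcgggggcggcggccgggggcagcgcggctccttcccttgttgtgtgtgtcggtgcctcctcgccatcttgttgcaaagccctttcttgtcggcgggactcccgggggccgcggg

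MXD4 chr4:2262060-2262359 (minus strand): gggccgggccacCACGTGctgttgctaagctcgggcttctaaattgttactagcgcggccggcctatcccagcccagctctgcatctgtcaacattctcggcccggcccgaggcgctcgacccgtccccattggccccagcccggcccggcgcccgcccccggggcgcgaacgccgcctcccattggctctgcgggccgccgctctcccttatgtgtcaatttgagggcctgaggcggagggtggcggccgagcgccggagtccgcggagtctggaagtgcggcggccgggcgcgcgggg

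CACGTG, which reads alike on both strands, was searched in the 15 promoter windows that the table holds for the members. The table held no window for MYC, which was not searched. The letters were in 2 of the 15, that of MNT at 193 bases before the start and that of MXD4 at 238 bases before it. Over all 35116 windows of this length in the table, 7.26% held it. The match is of letters and does not show that a factor binds there, and a window without it says nothing about the factor.

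MYC itself was measured at 1 probe set, 202431_s_at. Its log2 values were 12.53, 12.53 and 12.58 in CA, against 12.25, 12.27 and 12.26 in DMSO. All CA arrays were higher than all DMSO arrays, and the gap between the groups was wider than the range within either. The level was 1.22-fold that in DMSO (95% confidence interval 1.12 to 1.33, unadjusted p = 0.000865 and adjusted p = 0.129 over all probe sets in limma). In the same model with 1 probe set per gene, where 0.895% of 19775 genes passed, MYC passed with an adjusted p of 0.0405. It also passed without dim probe sets (adjusted p = 0.0224) and with an intensity trend and robust fit (adjusted p = 4.5e-05). These fits use the same values and groups, so the log2 change of 0.29 is the same in each by construction. MYC did not pass in limma with array weights (adjusted p = 0.102), median centring (adjusted p = 0.138) or a replicate block (adjusted p = 0.282). Without CA replicate 3 the log2 change was 0.27 (adjusted p = 0.217). The exact permutation test of 3 against 3 arrays cannot give a two-sided p below 0.1, which is the value it gave for MYC.

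MYCL, a paralogue of MYC that also pairs with MAX, had 2 probe sets. At 214058_at the log2 values were 6.34, 6.35 and 6.30 in CA, against 6.09, 6.09 and 6.09 in DMSO. Every CA array was higher than every DMSO array, and the DMSO arrays were nearly equal. The level was 1.18-fold that in DMSO (1.09 to 1.29, adjusted p = 0.211 in limma). It passed without dim probe sets (adjusted p = 0.0384) and missed the threshold with 1 probe set per gene (adjusted p = 0.0705). Without CA replicate 3 the log2 change at this probe set was 0.26 (adjusted p = 0.230). The second probe set, 215491_at, lay below the median of all probe sets, with 4.80, 4.45 and 5.20 in CA and 4.67, 4.77 and 4.68 in DMSO. There the CA arrays spread on both sides of the DMSO arrays, and the log2 change was 0.11 (-0.30 to 0.51), against -0.08 without CA replicate 3. The difference between the changes at the 2 MYCL probe sets was 0.14 on the log2 scale (exact permutation p = 0.7).

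MYCBP, which binds the amino-terminal part of MYC and does not pair with MAX, was measured at 4 probe sets that it shares with GJA9-MYCBP. At the brightest, 203359_s_at, the log2 values were 10.51, 10.66 and 10.56 in CA and 10.49, 10.57 and 10.49 in DMSO. The groups overlapped there and at the other 3. Log2 changes ran from -0.06 to 0.06, and the smallest adjusted p was 0.815 in limma. The interval at 203359_s_at, 0.941-fold to 1.16-fold, limits how large a difference these arrays leave room for.

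MAX, the partner shared by the MYC, MXD, MNT and MGA proteins, had 5 probe sets, all above the median of all probe sets. At the brightest, 209332_s_at, the log2 values were 9.90, 9.81 and 9.79 in CA and 9.76, 9.82 and 9.76 in DMSO. The highest DMSO array lay above 2 of the CA arrays. The level was 1.04-fold that in DMSO (0.942 to 1.14, adjusted p = 0.836 in limma). Log2 changes at the other 4 were 0.07, 0.08, 0.08 and -0.07, with overlapping groups at each. The smallest adjusted p of the 5 was 0.788.

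Whether MYC differed from MAX, and from MXI1, MNT and MXD1, which also pair with MAX, was tested within arrays. This removes any shift shared by an array. The log2 change of MYC was 0.24 larger than that of MAX at 209332_s_at, 0.30 larger than that of MXI1, 0.12 larger than that of MNT at 204206_at and 0.13 larger than that of MXD1 at 226275_at. For MAX, MXI1 and MNT the gap between the MYC value and that of the other gene was higher on every CA array than on every DMSO array (exact permutation p = 0.1, the smallest that 3 against 3 arrays allow). For MXD1 the groups overlapped (exact permutation p = 0.2), and the difference was 0.05 without CA replicate 3. Against the MXD1 probe set 228846_at, where all CA values lay above DMSO, a pair added after the values were seen, the change of MYC was 0.03 larger (exact permutation p = 0.6). Among the 9 differences between probe sets computed in all, the smallest p after Benjamini-Hochberg adjustment was 0.225. Those within MYCL, MXD1 and MNT start from the probe set whose groups did not overlap. That choice was made from these same values and favours a larger change there. MYC also had groups that did not overlap. Its gaps to MAX and MXI1, whose log2 changes were 0.05 and -0.01, therefore largely restate the separation at MYC itself.

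**Figure D2:**
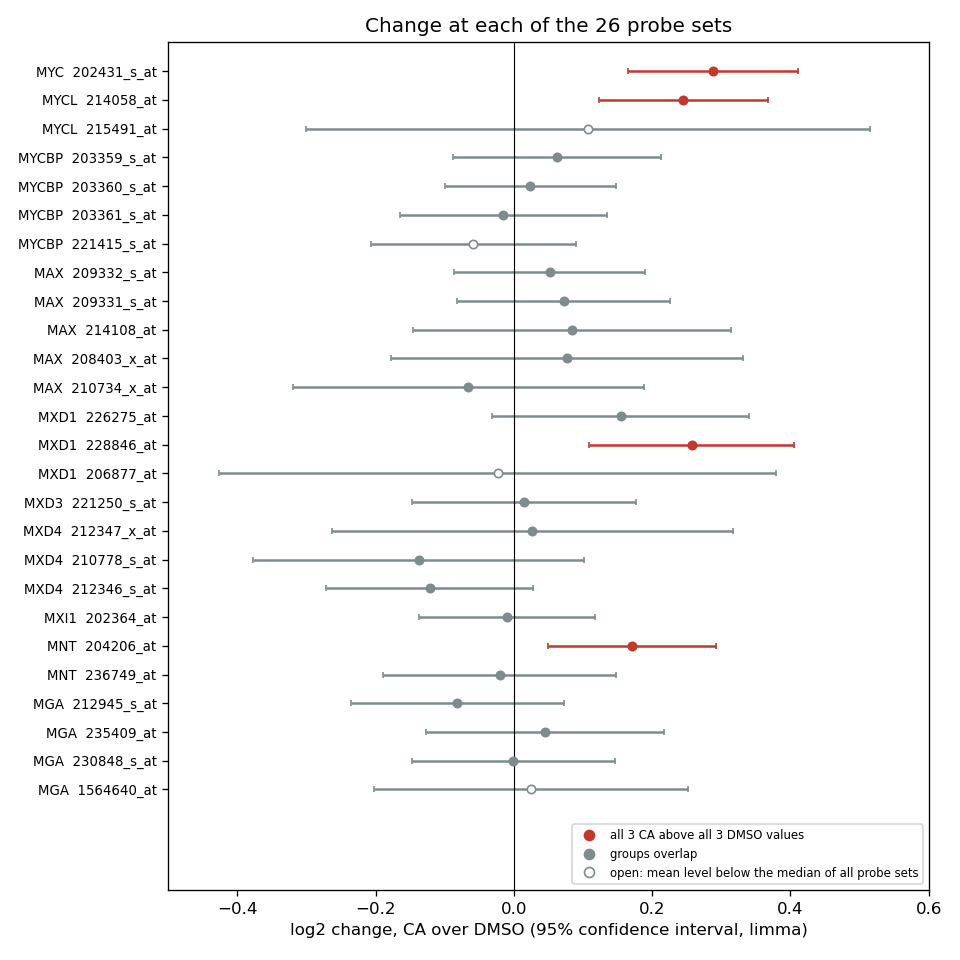
Log2 change in CA over DMSO (horizontal axis) with its 95% confidence interval from limma at each of the 26 probe sets, ordered by gene. Filled red points mark the 4 probe sets whose CA values all lie above the DMSO values, and open points mark the 4 with a mean below the median of all probe sets. The intervals of the 22 points that are not red include 0.

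Among the MXD repressors, MXD1 had the largest differences. At 228846_at the log2 values were 6.79, 6.91 and 6.88 in CA, against 6.54, 6.66 and 6.62 in DMSO. Every CA array was higher than every DMSO array. The level was 1.19-fold that in DMSO (1.08 to 1.32, adjusted p = 0.292 in limma). The log2 change there was 0.25 without CA replicate 3 (adjusted p = 0.348). At the brighter probe set 226275_at the values were 7.61, 7.66 and 7.43 in CA and 7.39, 7.49 and 7.36 in DMSO, so that CA replicate 3 lay within the DMSO range. The level was 1.11-fold that in DMSO there (0.979 to 1.27, adjusted p = 0.641), with a log2 change of 0.15, or 0.22 without CA replicate 3. The third MXD1 probe set, 206877_at, was dim, with 4.42, 4.45 and 4.42 in CA and 4.38, 4.11 and 4.85 in DMSO, and its log2 change was -0.02 (-0.43 to 0.38). The change at 228846_at was 0.10 larger than at 226275_at (exact permutation p = 0.3), or 0.02 larger without CA replicate 3, and 0.28 larger than at 206877_at (exact permutation p = 0.4). With an array left out in turn these differences ran from 0.02 to 0.16 and from 0.09 to 0.48.

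MXI1, a repressor of the same family, was measured at 202364_at and was bright. Its log2 values were 11.07, 11.01 and 11.10 in CA and 11.07, 11.08 and 11.06 in DMSO. The CA arrays lay around the DMSO arrays, with a level of 0.993-fold (0.909 to 1.08, adjusted p = 0.972 in limma). MXD3, measured at 221250_s_at, had 7.36, 7.28 and 7.36 in CA and 7.38, 7.21 and 7.37 in DMSO. Its level was 1.01-fold that in DMSO (0.903 to 1.13, adjusted p = 0.968).

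MXD4 had 3 probe sets, each of which also lists MIR4800. At 212346_s_at the log2 values were 6.33, 6.19 and 6.20 in CA and 6.32, 6.35 and 6.41 in DMSO. CA replicate 1 lay within the DMSO range and the other CA arrays lay below it, with a log2 change of -0.12 (-0.27 to 0.03, adjusted p = 0.646 in limma). At 210778_s_at the values were 6.87, 6.81 and 6.51 in CA and 6.92, 6.89 and 6.79 in DMSO. The log2 change there was -0.14 (-0.38 to 0.10), and the low value was that of CA replicate 3. Without that array the log2 change at 210778_s_at was -0.03. The third, 212347_x_at, had a log2 change of 0.03 (-0.26 to 0.32).

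MNT, a repressor present in most cell types that competes with MYC for MAX, had 2 probe sets. At 204206_at the log2 values were 9.72, 9.68 and 9.70 in CA, against 9.53, 9.53 and 9.53 in DMSO. Every CA array was higher than every DMSO array. The level was 1.13-fold that in DMSO (1.03 to 1.22, unadjusted p = 0.0127, adjusted p = 0.413 in limma), and it passed with an intensity trend and robust fit (adjusted p = 0.0416). Without CA replicate 3 the log2 change there was 0.17 (adjusted p = 0.388). At 236749_at the values were 5.82, 5.70 and 5.86 in CA and 5.79, 5.75 and 5.91 in DMSO, with a log2 change of -0.02 (-0.19 to 0.15). The change at 204206_at was 0.19 larger than at 236749_at, with the within-array gap higher on every CA array than on every DMSO array (exact permutation p = 0.1, the smallest possible). The probe set 204206_at was picked for this comparison because its groups did not overlap, which favours such a gap.

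MGA, which carries a T-box beside its helix-loop-helix domain, had 4 probe sets. At 212945_s_at the log2 values were 8.46, 8.56 and 8.38 in CA and 8.59, 8.54 and 8.53 in DMSO, a level of 0.945-fold (0.850 to 1.05, adjusted p = 0.760 in limma). At 235409_at they were 8.62, 8.53 and 8.39 in CA and 8.49, 8.44 and 8.48 in DMSO, a level of 1.03-fold (0.915 to 1.16). CA replicate 3 was the lowest array at both, and without it the log2 change at 212945_s_at was -0.04, against -0.08 with it. The log2 change was -0.00091 at 230848_s_at and 0.02 at 1564640_at, the dimmest member probe set with a mean log2 value of 2.98.

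**Figure D3:**
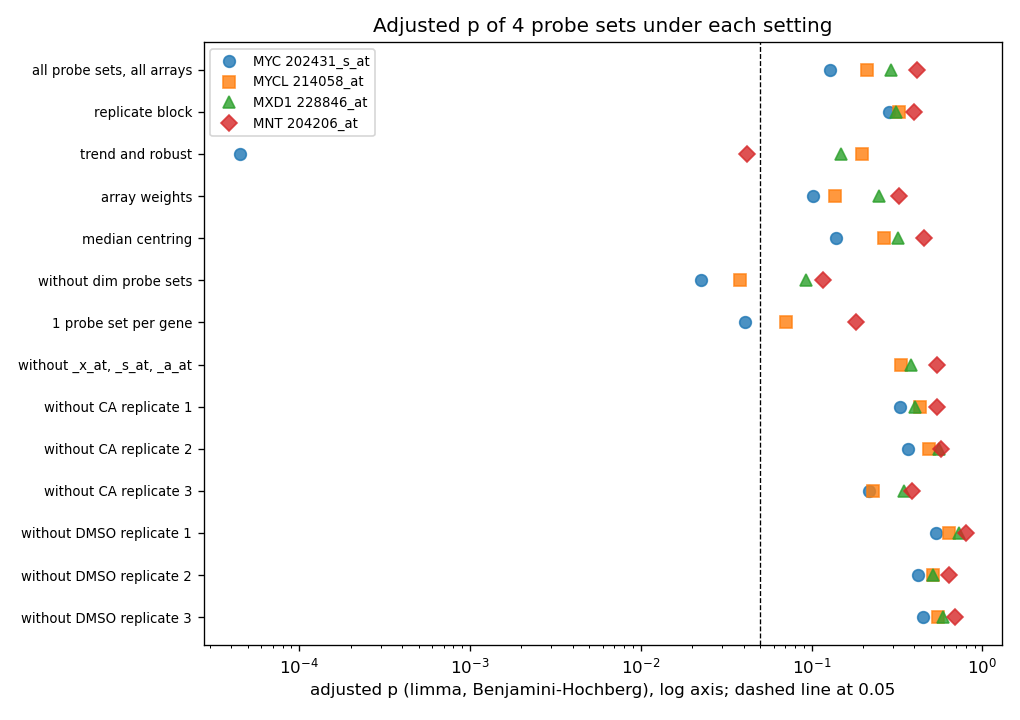
Adjusted p from limma (horizontal log axis, dashed line at 0.05) of the MYC, MYCL, MXD1 and MNT probe sets whose groups did not overlap, under the reported fit and each of 13 alternatives (vertical axis). MYC lies left of the line with a trend and robust fit, without dim probe sets and with 1 probe set per gene, and 1 point each of MYCL and MNT also lies left of it. An absent point means that the probe set was not in that fit.

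The genes whose values ran most like those of MYC were TNS3, JARID2 and AP2B1, with Pearson correlations of 0.999, 0.998 and 0.998 with the MYC probe set over the 6 arrays. The arrays fall into the CA and DMSO groups and share their normalisation, and 57 of 22764 probe sets compared had a correlation above 0.99, so the order among them is a description only. JARID2, a cofactor of Polycomb complex 2, had log2 values of 11.11, 11.14 and 11.23 in CA, against 10.54, 10.55 and 10.59 in DMSO. It rose 1.52-fold (adjusted p = 0.0206 in limma over all probe sets). TNS3, a focal adhesion protein, was 1.18-fold its DMSO level (adjusted p = 0.247), and AP2B1, an adaptor of clathrin coats, was 1.06-fold (adjusted p = 0.694).

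The genes around the network were read at the brightest probe set of each gene, with p adjusted over all probe sets. Over all 19775 genes 0.359% passed that test in either direction, 69 higher and 2 lower, and the median log2 change was 0.0037. At an unadjusted p under 0.05, 5.84% of these genes were higher and 3.64% lower. Of 10 further relatives and E-box binding factors, among them MYCN, MLX and MLXIP, 0 passed and 0 had an unadjusted p under 0.05 in limma. Their median log2 change was -0.03, with -0.13 for USF1 and 0.05 for MLX, the MAX-like partner of glucose-sensing factors (adjusted p = 0.721 and 0.825).

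The corepressor that MXD proteins and MNT recruit gave no call. Of 14 measured SIN3 and histone deacetylase complex genes, 0 passed, and an unadjusted p under 0.05 in limma was reached by 1 higher and 2 lower genes, with a median log2 change of -0.02. At 1 of the 14 all CA values lay above all DMSO values, and at 4 below them (2331 and 1490 of all 19775 genes). SAP30, a subunit of the complex, was 1.17-fold its DMSO level (adjusted p = 0.400), and the scaffold gene SIN3A was 0.831-fold (adjusted p = 0.463). Of 12 measured genes of the MGA Polycomb complex 0 passed, with 0 higher and 1 lower without an adjustment and a median of -0.03. At 0 of the 12 all CA values lay above all DMSO values, and at 3 below them. RYBP was 0.885-fold (adjusted p = 0.573) and WDR5 0.957-fold its DMSO level (adjusted p = 0.811).

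Of 16 measured coactivators and binding partners of MYC, 0 passed and 0 had an unadjusted p under 0.05 in limma, with a median log2 change of -0.01. The histone acetyltransferase gene EP300 was 0.822-fold its DMSO level (adjusted p = 0.584), and EP400, of an acetyltransferase complex that MYC recruits, was 1.08-fold (adjusted p = 0.625). Of 25 measured genes that set MYC protein stability, 0 passed, while 6 were higher and 1 was lower without an adjustment, with a median of 0.0079. All CA values lay above all DMSO values at 8 of the 25 and below them at 4 (2331 and 1490 of all 19775 genes). A mean above the median of all probe sets was found at 24 of the 25, and at 12515 of the 19775. PIM2, a kinase that stabilises MYC, was 1.25-fold its DMSO level (1.14 to 1.38, adjusted p = 0.123) and passed with 1 probe set per gene (adjusted p = 0.0468). The deubiquitinase gene USP36 was 1.20-fold (adjusted p = 0.341).

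Among 19 measured factors that act on MYC transcription, SMAD3 passed in limma. Its log2 values were 7.10, 7.27 and 7.07 in CA, against 6.52, 6.53 and 6.40 in DMSO, and it rose 1.59-fold (1.40 to 1.79, adjusted p = 0.0346). SMAD3 carries TGF-beta signals and is known to repress MYC in epithelial cells. RBPJ, the DNA-binding partner of Notch, was 1.25-fold its DMSO level (adjusted p = 0.101) and passed with 1 probe set per gene (adjusted p = 0.0320). Without an adjustment 2 of the 19 were higher and 3 lower, and the median log2 change was -0.0045.

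Targets were read as separate lists. Of 47 measured E-box genes that MYC is known to raise, such as CAD and SRM, 0 passed in limma, an unadjusted p under 0.05 was reached by 2 higher and 2 lower genes, and the median log2 change was 0.02. All CA values lay above all DMSO values at 13 of the 47 and below them at 9 (2331 and 1490 of all 19775 genes). All 47 had a mean above the median of all probe sets, as did 12515 of the 19775 genes. The part of that level in the counts was not tested. UBTF, a factor of ribosomal RNA transcription, was 0.830-fold its DMSO level (adjusted p = 0.164), and ID2, an inhibitor of helix-loop-helix factors, was 1.20-fold (adjusted p = 0.236). Of 17 measured genes proposed to be lowered by MYC, CEBPA rose 1.39-fold (adjusted p = 0.0439 in limma). Without an adjustment 5 were higher and 2 lower, and the median was -0.0065. At 5 of the 17 all CA values lay above all DMSO values, and at 2 below them. TXNIP, the thioredoxin-interacting protein, was 0.740-fold its DMSO level (adjusted p = 0.0581) and passed with 1 probe set per gene (adjusted p = 0.0221).

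In the list of MOLM-14 identity CEBPA was the gene that passed, and an unadjusted p under 0.05 in limma was reached by 3 higher and 0 lower genes of 15. Of all genes 5.84% were higher and 3.64% lower at that p. At 4 of the 15 all CA values lay above all DMSO values, and at 2 below them (2331 and 1490 of all 19775 genes). IL3RA, a receptor subunit for interleukin 3, was 1.19-fold its DMSO level (adjusted p = 0.232). Among the 23 markers of other cells PECAM1, an endothelial marker that myeloid cells also carry, rose 1.33-fold (adjusted p = 0.0464), and 2 higher and 1 lower marker had p below 0.05 before adjustment. HBB had a log2 change of 0.25 at its brightest probe set (adjusted p = 0.504) and of -0.02, 0.08 and 0.04 at its other 3, where the groups overlapped. Every call in these lists was lost when any single array was left out. So were nearly all calls over all 54613 probe sets, with 0 to 6 left of 120, so the loss is not particular to these genes.

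**Figure D4:**
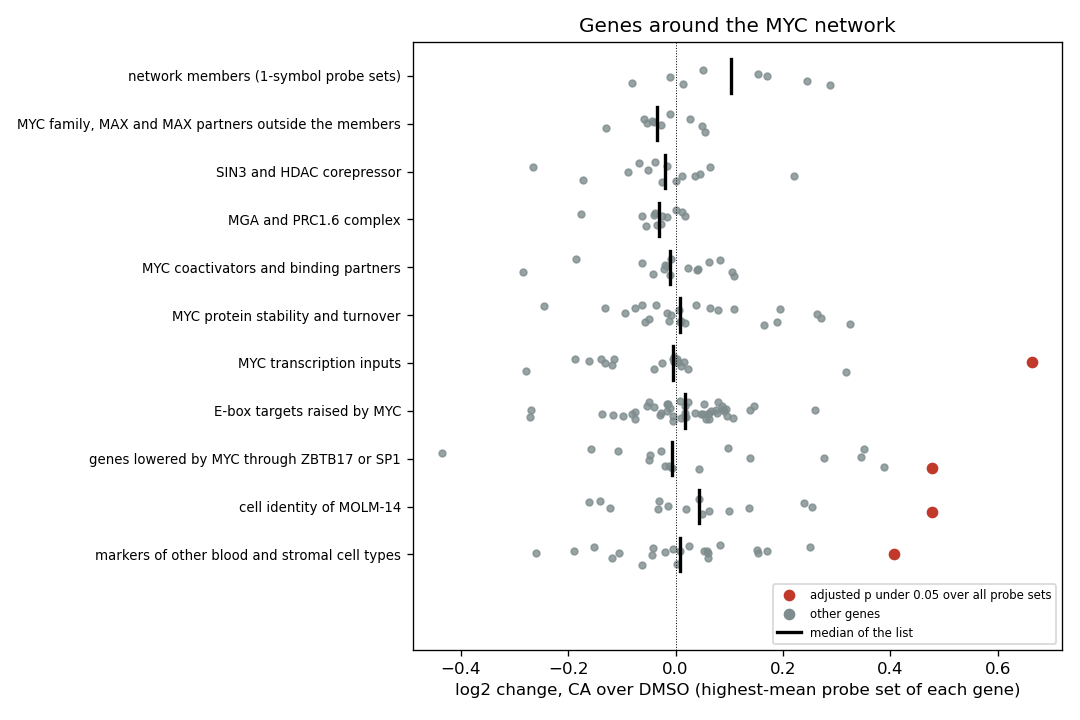
Log2 change in CA over DMSO (horizontal axis) of each measured gene at its brightest probe set, by list, with a bar at the median of each list. Red points are the genes with an adjusted p under 0.05 over all probe sets (SMAD3, CEBPA in each of its 2 lists, and PECAM1), and the medians of the lists outside the members lie between -0.03 and 0.04.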

How the data were processed

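One array was hybridised for each of 3 CA and 3 DMSO samples, which were grouped by their titles. The log2 expression values that the authors deposited were made by RMA in the affy package, according to the submitters' processing notes, with 1 value for each probe set and array. RMA includes quantile normalisation, so a shift common to all genes cannot be seen. RNA was isolated with either of 2 reagents. Which sample had which, the scan dates, software versions and probe annotation were not stated in the sources used here.

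The table had 62 control probe sets, which were dropped, and 54613 others, with 1 symbol at 41091, several at 1801 and none at 11721. All 10 member symbols matched RefSeq by gene number. The deposited values were fitted with limma 3.58.1 in R 4.3.3 (lmFit, eBayes, two-sided), and p was adjusted by Benjamini-Hochberg over all 54613 probe sets, with a threshold of 0.05. The prior had 3.06 degrees of freedom, and the median SE was 0.08. A fold is the log2 change taken out of the log scale. The fit was tested on simulated data. Named were all member probe sets and, of each other list, the genes that passed and the 2 with the smallest p (19 genes), with 3 genes most like MYC. Members, lists and rules were chosen with earlier results of these data known. Alternatives were a replicate block, a trend with robust fit, array weights, median centring, leaving out probe sets with a mean below the median (dim), 1 probe set per gene, leaving out _x_at, _s_at and _a_at probe sets, and leaving out each array in turn.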

Additional observations from a re-analysis of the deposited data

How the results depend on the processing

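Of all probe sets, 116 were higher and 4 lower in CA, 120 in all. These counts were 640, 100 and 740 with a trend and robust fit, 365, 33 and 398 without dim probe sets, 185, 11 and 196 with array weights, and 166, 11 and 177 with 1 probe set per gene. They were 47, 0 and 47 without _x_at, _s_at and _a_at probe sets, 110, 2 and 112 with median centring, and 0 to 6 higher, 0 to 0 lower and 0 to 6 in all with an array left out. With a replicate block, although no label says that equal numbers mark paired wells, 1 was higher, 0 lower and 1 in all, and MYC had an adjusted p of 0.282. Deviations of same-numbered arrays correlated at 0.08, 0.19 and 0.26. CA replicate 1 correlated about equally with DMSO replicate 2 (0.0825) and DMSO replicate 1 (0.0805). Every other pair of differently numbered arrays had a correlation below 0, from -0.23 to -0.01. Whether equal numbers mark paired wells was not tested, nor was the cause of the differences between the counts.

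Member probe sets called were 0 of 26 in the reported fit, 1 of 8 with 1 probe set per gene and 2 of 26 with the trend and robust fit. They were 2 of 22 without dim probe sets and 0 with any array left out. Calls over all features were 120 of 54613 (0.22%) in the reported fit, 177 of 19775 genes (0.895%) with 1 probe set per gene and 740 of 54613 with the trend and robust fit. Without dim probe sets they were 398, out of only those of the 54613 probe sets whose mean was not below the median. The passing values were 0.29 for MYC in those 3 fits, 0.24 for MYCL at 214058_at without dim probe sets and 0.17 for MNT at 204206_at with the trend and robust fit. At an unadjusted p under 0.05, members lower in CA numbered 0 in the reported fit and 0 to 2 with an array left out. With an array left out, log2 changes ran from 0.27 to 0.30 for MYC (adjusted p 0.217 to 0.532), and from 0.23 to 0.26, 0.22 to 0.29 and 0.16 to 0.18 for MYCL at 214058_at, MXD1 at 228846_at and MNT at 204206_at.

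Changes near 0 turned sign. With array weights they were -0.023 for MXD4 at 212347_x_at and 0.015 for MGA at 230848_s_at, and with median centring 0.0049 for MXI1 and 0.014 for MGA at 230848_s_at. With an array left out, the ranges were -0.085 to 0.29 for MYCL at 215491_at, -0.046 to 0.034 for MYCBP at 203361_s_at, -0.19 to 0.019 for MAX at 210734_x_at, -0.19 to 0.18 for MXD1 at 206877_at, -0.042 to 0.044 for MXD3, -0.072 to 0.14 for MXD4 at 212347_x_at and -0.029 to 0.013 for MXI1. They were -0.053 to 0.026 for MNT at 236749_at, -0.0096 to 0.11, -0.038 to 0.029 and -0.080 to 0.093 for MGA at 235409_at, 230848_s_at and 1564640_at, and -0.056 to 0.34 for the difference between the MYCL probe sets. The difference between MYC and MXD1 at 226275_at did not turn sign and ran from 0.047 to 0.19.

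Genes called in the lists moved too, and with an array left out every list had 0 to 0. With 1 probe set per gene, 1 turnover gene, 2 transcription inputs and 4 genes proposed to be lowered by MYC passed. With the trend and robust fit the numbers were 1, 3 and 6, with 2 E-box targets, 1 corepressor gene and 3 identity genes; without dim probe sets 1, 2 and 4, with 1 E-box target. With array weights 2 genes proposed to be lowered by MYC passed. The block left 0 transcription inputs, 0 genes proposed to be lowered, 0 identity genes and 0 markers of other cells, and leaving out _x_at, _s_at and _a_at probe sets left 0 in the last 3 of these. Median centring left 0 markers of other cells. Signal was below the median of all probe sets at 4 member probe sets, where the SE was 0.06 to 0.17.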

Other observations

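Some genes around the network had several probe sets, and these were set side by side after their values were seen. SAP30, the corepressor subunit, had CA values above all DMSO values at 3 of its 4 probe sets, with log2 changes of 0.22, 0.27 and 0.35 and adjusted p of 0.400, 0.255 and 0.101 in limma, and -0.02 at the remaining dim probe set. SIN3A had a log2 change of -0.27 at its brightest probe set, with CA values below all DMSO values, and 0.07, -0.16 and 0.04 at the others, where the groups overlapped. EP300 had -0.28 and -0.34 at its 2 probe sets, with CA values below all DMSO values at both and CA replicate 3 the lowest array. RBPJ had 0.32, 0.25 and 0.25, with no overlap of the groups at any of the 3. USP36 had 0.26 at its brightest probe set and 0.11, 0.09, -0.13 and 0.0049 at the others. RYBP had -0.18 at its brightest and -0.05, 0.0081 and -0.05 at the others, and WDR5 had -0.06 and 0.09.

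UBTF had a log2 change of -0.27 at its brightest probe set, 225982_at, and 0.08, -0.03, -0.13 and 0.05 at the others, where the groups overlapped. TXNIP had -0.43, -0.38 and -0.39 at its 3 probe sets, with adjusted p of 0.0581, 0.0917 and 0.116 in limma and CA values below all DMSO values at each. ID2 had 0.26 and 0.24 at its 2 probe sets, with CA values above all DMSO values at both. SMAD3 had 0.66 at its brightest probe set and 0.35, 0.12 and 0.14 at the others (adjusted p = 0.185, 0.710 and 0.759 in limma). PECAM1 had 0.41 at its brightest and 0.38, 0.51, -0.06 and 0.41 at the others (adjusted p = 0.0607, 0.0241, 0.879 and 0.0930).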
